A study of Mus musculus with 2 samples.

Results

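Purinergic receptors are the cell surface receptors for extracellular nucleotides, and 10 of them were examined by name: the 6 P2X genes P2rx2, P2rx3, P2rx4, P2rx5, P2rx6 and P2rx7, and the 4 P2Y genes P2ry1, P2ry2, P2ry12 and P2ry14. All 10 were among the 39098 gene symbols of the data and had counts in both libraries. The cells came from the trigeminal ganglia (TGs) of the right side of C57BL/6 males aged 5 to 8 weeks, and 1 library was made per condition on the BD Rhapsody platform, where each molecule carries a unique molecular identifier (UMI) that is counted per gene and cell. In the CFA library the mice had received 20 μL of complete Freund's adjuvant, an oil emulsion with killed mycobacteria that provokes inflammation, in the right vibrissal pad. The control library is labelled untreated, while the study's methods describe a saline injection. Ganglia of both groups were taken at 1 time point after injection, so no course over time can be read. Mice were divided evenly between both groups, and how many of them entered a library is not given in the sources used here.

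P2X receptors are cation channels built of 3 subunits and opened by extracellular ATP, so that P2X2 and P2X3 subunits can form channels of their own or a mixed channel. P2Y receptors are G protein-coupled receptors for ATP, ADP, UTP or nucleotide sugars. In sensory ganglia, P2X3 is known as the ATP receptor of non-peptidergic nociceptors, and satellite glial cells, Schwann cells and macrophages are known to carry other members of the family.

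With 1 library per condition there is no replicate check, and library and condition cannot be told apart. No test was made between libraries, and every interval given in parentheses is an exact 95% interval that covers counting error only (Poisson for levels, Clopper-Pearson for shares, conditional binomial for ratios). After filtering, the control library held 6695 cells with a median of 1448 UMIs, and the CFA library held 3661 cells with a median of 1192 UMIs. Neurons numbered 822 and 428, with medians of 43660 and 35110 UMIs, and 27 cell barcodes occurred in both libraries. Levels are given as CPM, the UMIs of a gene scaled to a common total, over all cells of a class. Because only the ends of transcripts were counted, levels are compared between classes of cells for 1 gene and not between genes. A glial cluster led by interferon-induced genes held 326 control and 9 CFA cells and was kept apart from the other glia.

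Neurons were assigned to 9 gates by raw UMIs of marker genes, none of which is a purinergic receptor. The gates are Mrgprd (non-peptidergic nociceptors), Mrgpra3 (pruriceptive non-peptidergic neurons), Sst with Nppb (itch neurons with natriuretic peptide B), Trpm8 (cold-sensing neurons), Tafa4 with Slc17a8 (C-fiber low-threshold mechanoreceptors, cLTMR), Nefh without peptides (A-fibre), Nefh with Calca, and 2 peptidergic gates with Calca and Tac1 that differ in Sstr2. In each library 22 of 24 marker checks were highest in the expected gate. The exceptions were Pvalb in both libraries, which was highest in the Trpm8 gate and not in the A-fibre gate, Plxnc1 in control neurons and Mrgpra1 in CFA neurons. The A-fibre gate held 14 control and 9 CFA neurons, and 117 control and 86 CFA neurons passed no gate.

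**Figure D1:**
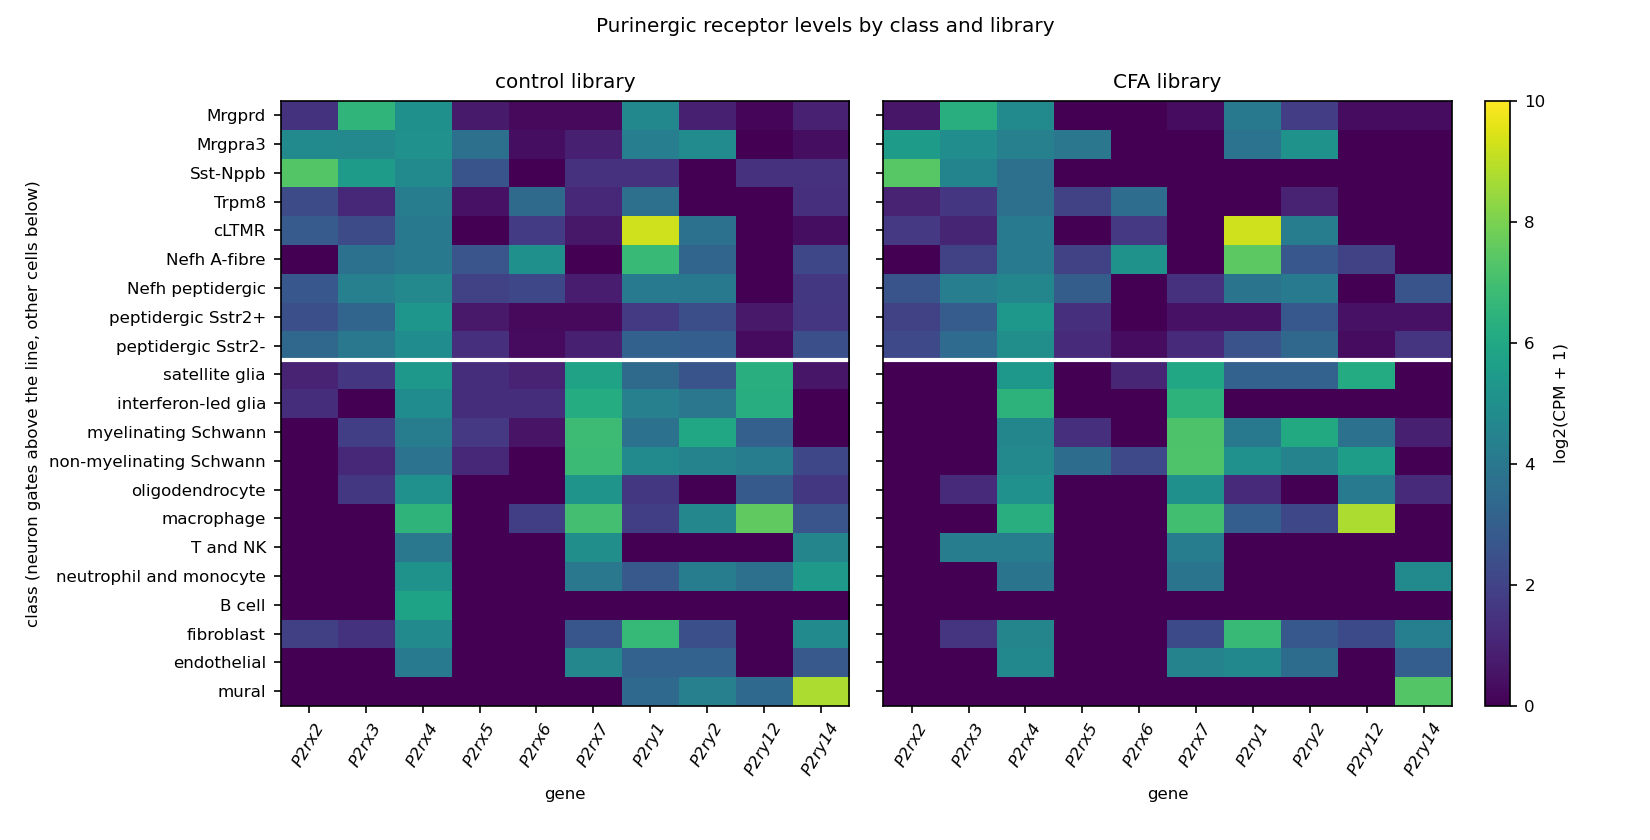
Levels of the 10 receptor genes (columns) in the neuron gates and other cell types (rows) of the control and CFA libraries, as the colour of log2(CPM + 1). Read each column from top to bottom: P2rx3 was brightest in the Mrgprd gate, P2ry1 in cLTMR, P2ry12 in macrophages and P2ry14 in mural cells in both libraries.

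P2rx3, which encodes the P2X3 subunit, had its highest level in the Mrgprd gate. The gene lies at chr2:84998583-85037462 on the minus strand (GRCm38). Its level in this gate was 91.9 CPM (86.3 to 97.8) in 162 control neurons and 79.0 CPM (70.4 to 88.3) in 62 CFA neurons. Single Mrgprd neurons had a median of 6 UMIs of P2rx3 in the control library (lowest 0, highest 24) and of 5 UMIs in the CFA library (lowest 0, highest 12). At least 1 UMI was found in 93.2% of the control and 93.5% of the CFA neurons of the gate. Both libraries therefore had P2rx3 RNA in nearly every Mrgprd neuron, and the gate held 74.8% of the P2rx3 UMIs of gated neurons in each.

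P2rx3 overlaps the start of Ssrp1 on the opposite strand, a broadly expressed gene that was at 103 CPM in control and 158 CPM in CFA satellite glia, where P2rx3 had 4 and 0 UMIs.

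Every other neuron gate had less P2rx3. The level was 44.2 CPM (28.9 to 64.7) for control and 21.7 CPM (10.8 to 38.9) for CFA neurons of the Sst-Nppb gate, while the Mrgpra3 gate had 25.2 CPM (20.3 to 31.0) and 29.0 CPM (18.1 to 43.8). The intervals of these 2 gates overlapped in the CFA library and, narrowly, in the control library, so their order is not settled. Nefh peptidergic neurons followed with 19.6 and 18.4 CPM, the peptidergic gate without Sstr2 with 15.2 and 10.2 CPM, and the gate with Sstr2 with 8.47 and 6.50 CPM. Trpm8 neurons had 3 UMIs in the control against 2 in the CFA library. At full depth a P2rx3 UMI was found in 28.0% of control and 22.0% of CFA neurons of the gate without Sstr2. The Mrgpra3 gate, which was deeper, had it in 60% and 66.7%. With every neuron reduced at random to 10000 UMIs, the shares were 9.48% and 7.55% without Sstr2. In the Mrgpra3 gate P2rx3 was then in 13.6% of control and 0 of 12 CFA neurons, and in the Mrgprd gate in 50.3% and 56.7%. Thinned to 20000 UMIs, P2rx3 was in 35.7% of control and 41.7% of CFA Mrgpra3 neurons, against 19.4% and 12.6% without Sstr2. The Mrgprd gate had 83.2% and 79.3% at that depth. By CPM the Mrgpra3 intervals lay above those without Sstr2, which were 12.7 to 18.0 for control and 7.24 to 13.9 for CFA. The Mrgprd gate thus stood far above the peptidergic gate without Sstr2 at both depths. In the control library the Mrgpra3 share was also above that without Sstr2 at both depths. In the CFA library 0 of 12 Mrgpra3 neurons at 10000 UMIs allows a share of up to 25%. Thinned to 5000 UMIs, 2 of these 12 had P2rx3, against 3.67% without Sstr2. So few CFA neurons do not settle the place of the Mrgpra3 gate at 10000 UMIs.

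P2rx2, which encodes the partner subunit P2X2, had another order of gates. The gene lies at chr5:110339812-110343212 on the minus strand. Its level in the Sst-Nppb gate was 160 CPM (129 to 195) in 13 control neurons and 170 CPM (136 to 210) in 10 CFA neurons. Single neurons of this gate had a median of 7 UMIs in the control (lowest 0, highest 14) and 10 UMIs in the CFA library (lowest 1, highest 15). All 10 CFA neurons and 12 of the 13 control neurons had at least 1 UMI, and the level was thus shared by nearly all cells of the gate.

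The Mrgpra3 gate came next, with 26.9 CPM (21.8 to 32.9) of P2rx2 in 45 control neurons and 44.8 CPM (31.0 to 62.5) in 12 CFA neurons. In the Mrgprd gate, where P2rx3 was highest, P2rx2 was at 1.74 CPM (1.05 to 2.71) in control cells against 0.513 CPM (0.0621 to 1.85) in CFA cells. No P2rx2 UMI was counted in the A-fibre gate of either library. The 2 subunit genes were therefore each highest in a gate where the other was not.

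**Figure D2:**
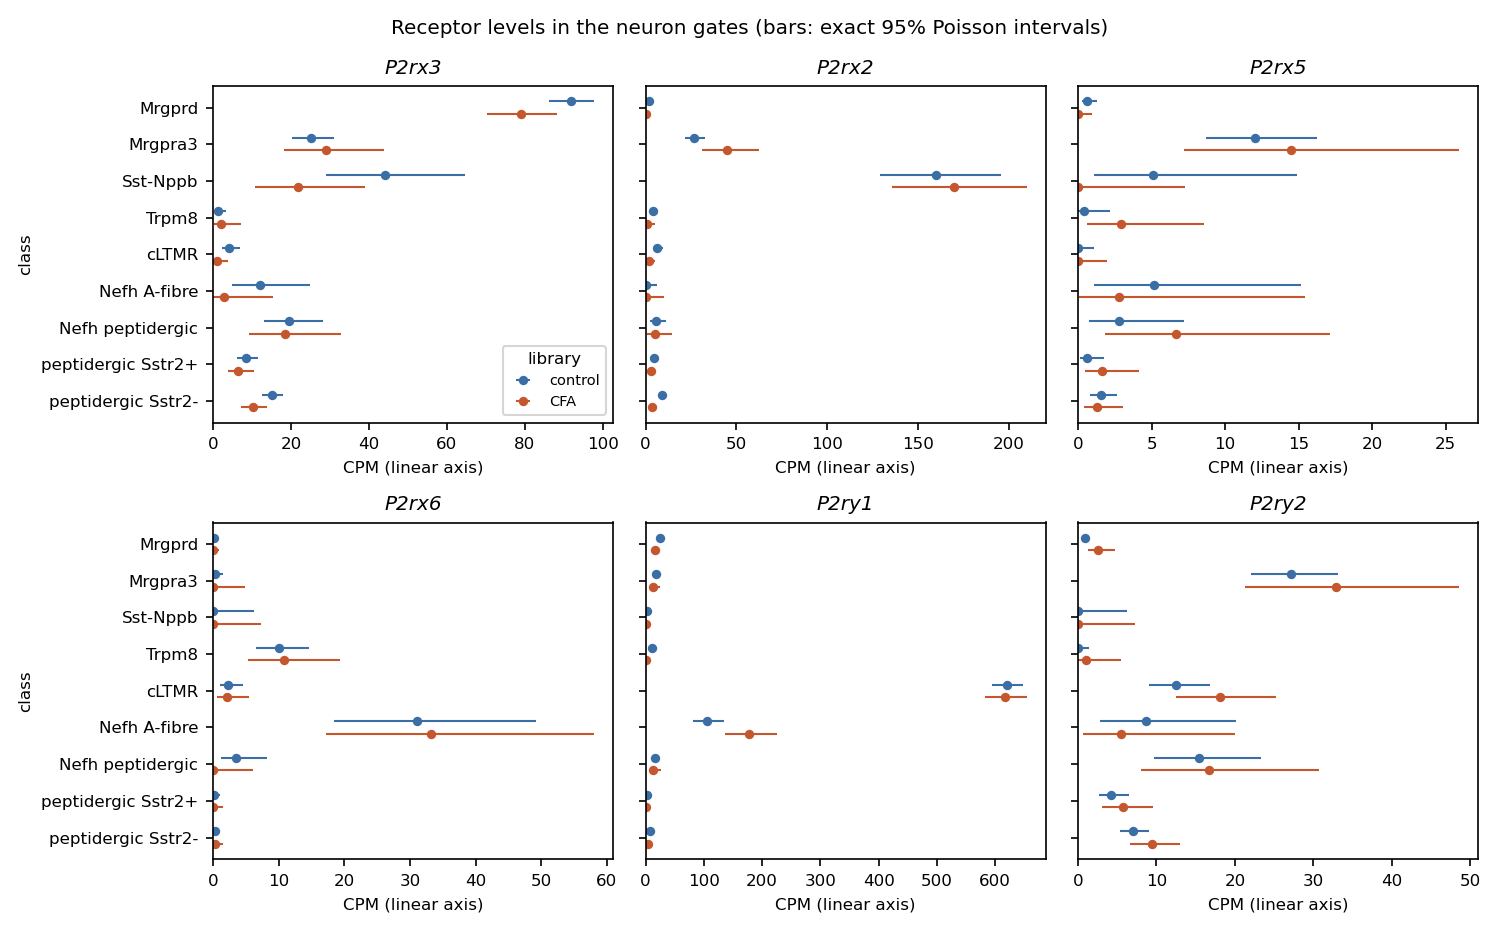
Levels (CPM, linear axes) of 6 receptor genes in the 9 neuron gates, as points with exact 95% Poisson intervals, for the control (blue) and CFA (orange) libraries. P2rx3 peaked in Mrgprd neurons (91.9 and 79.0 CPM), P2rx2 in Sst-Nppb neurons (160 and 170 CPM), P2rx5 in Mrgpra3 neurons, P2rx6 in A-fibre neurons, P2ry1 in cLTMR and P2ry2 in Mrgpra3 neurons.

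The balance of both subunit RNAs can be read as the share of P2rx2 in the summed UMIs of P2rx2 and P2rx3. That share depends on how well each transcript is captured, so only its differences between gates are informative. It was 1.86% (1.12 to 2.88) for control and 0.645% (0.0782 to 2.31) in CFA Mrgprd neurons. In Mrgpra3 neurons it was 51.6% (44.2 to 59.0) and 60.7% (46.8 to 73.5), and in Sst-Nppb neurons 78.3% (69.9 to 85.3) and 88.7% (80.6 to 94.2). The 3 intervals did not overlap within either library. Peptidergic neurons without Sstr2 stood between, with 37.6% (30.9 to 44.6) in the control against 26.4% (15.3 to 40.3) in the CFA library.

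Coexpression in single neurons followed these levels. At full depth, 61 of 822 control neurons (7.42%, 5.72 to 9.43) and 19 of 428 CFA neurons (4.44%, 2.69 to 6.85) had UMIs of both P2rx2 and P2rx3. In the control library 50.8% of the P2rx2-positive neurons also had P2rx3, and in the CFA library 37.3% did. Depth sets much of such a share: with every neuron thinned to 10000 UMIs, which left out 73 control and 50 CFA neurons, 11 of 749 (1.47%, 0.735 to 2.61) and 3 of 378 (0.794%, 0.164 to 2.30) had both. The product of the 2 single shares would give 1.31% and 0.678% at this depth. At full depth the product would give 5.75% for the control and 3.42% for the CFA library, values within the intervals of the shares found. With at least 2 UMIs of each gene asked for, 4.14% (2.88 to 5.73) and 1.64% (0.660 to 3.34) had both. The product would then give 2.11% and 0.992%, so the control share lay above it.

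By gate, the share of neurons with both RNAs at full depth was highest with Mrgpra3 or with Sst and Nppb. In the Mrgpra3 gate both RNAs were found in 22 of 45 control neurons (48.9%, 33.7 to 64.2) and 6 of 12 CFA neurons (50%, 21.1 to 78.9). In the Sst-Nppb gate they were found in 11 of 13 control neurons (84.6%, 54.6 to 98.1) and 5 of 10 CFA neurons (50%, 18.7 to 81.3). The product of the single shares would give 32.0% and 50% for control and CFA Mrgpra3 neurons. For Sst-Nppb neurons it would give 78.1% and 50%. The median depth of the neurons was 78446 and 60178 UMIs in the first gate and 45398 and 49902 UMIs in the second, so the gates are not compared with each other by these shares. Thinned to 10000 UMIs, 2 of 44 control (4.55%, 0.555 to 15.5) and 0 of 12 CFA Mrgpra3 neurons had both. In the Sst-Nppb gate 4 of 13 and 2 of 10 did, and without Sstr2 3 of 211 and 0 of 106 peptidergic neurons. At 10000 UMIs too few neurons had both to settle the place of the Mrgpra3 gate. Thinned to 20000 UMIs, 13 of 42 control (31.0%, 17.6 to 47.1) and 3 of 12 CFA Mrgpra3 neurons had both. Of the peptidergic neurons without Sstr2, 5 of 191 control and 2 of 87 CFA cells did, and of the Sst-Nppb neurons 7 of 13 and 3 of 10. At that depth the Mrgpra3 interval lay above that without Sstr2 in the control library, and the 2 overlapped in the CFA library. The counts that follow are again at full depth. In the Mrgprd gate 8 of 162 control neurons (4.94%) had both, and 0 of 62 CFA neurons did, which allows a share of up to 4.84%. Of the peptidergic neurons without Sstr2, 10 of 214 control and 5 of 109 CFA cells had both, and of those with Sstr2 7 of 127 and 0 of 71. Trpm8 and cLTMR neurons had 0 with both in either library. This allows up to 6% and 5.17% in the control, and 12% and 8.82% in the CFA library. Of the control neurons, 8 of 50 Trpm8 and 11 of 58 cLTMR had P2rx2, and 3 and 9 had P2rx3. The product of these shares would give only 0.96% and 2.94% with both.

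Outside neurons, P2rx2 and P2rx3 were near 0. Neurons held 98.4% of the P2rx2 and 99.0% of the P2rx3 UMIs of named control cells, and 100% and 99.3% of those of CFA cells. A UMI of P2rx3 was seen in 0.298% of 2015 control myelinating Schwann cells (median 1013 UMIs) and in 0 of 1285 CFA ones (median 860 UMIs), which allows a UMI in up to 0.233% of them and says little of how many such cells express the gene.

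**Figure D3:**
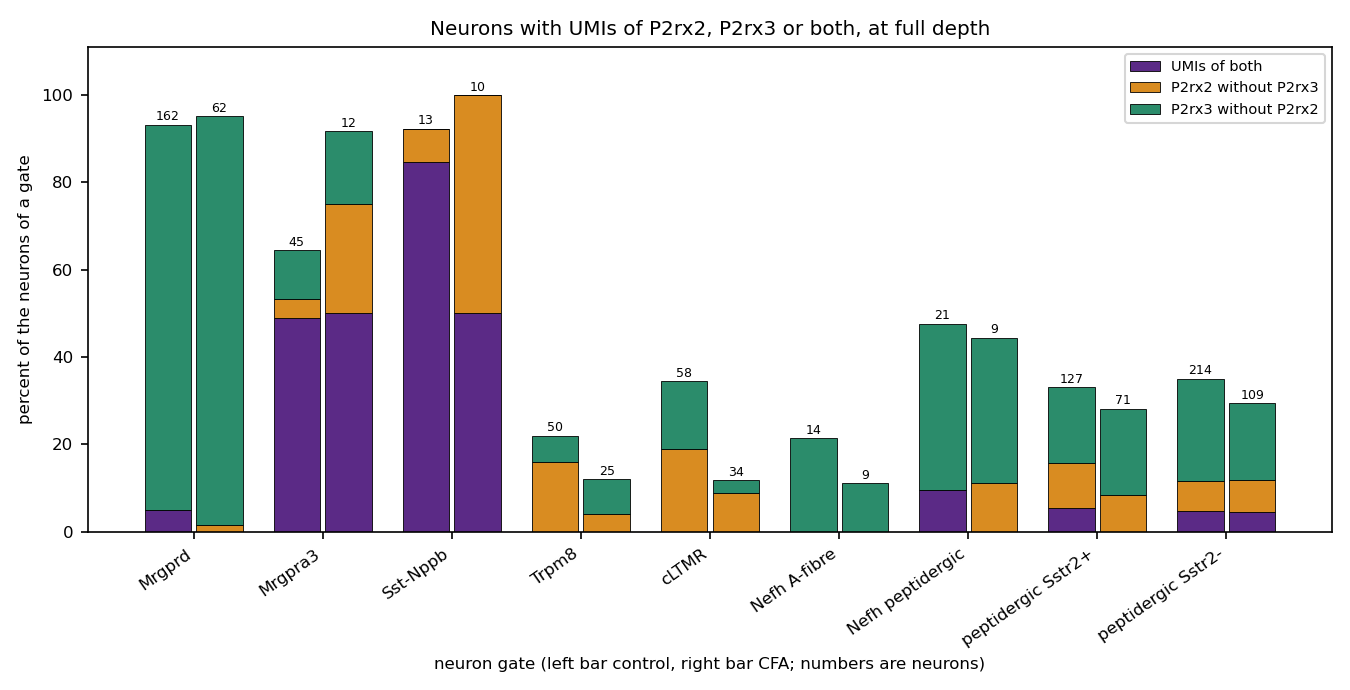
Share of neurons in each gate (percent, linear axis from 0) with UMIs of both P2rx2 and P2rx3, of P2rx2 without P2rx3 and of P2rx3 without P2rx2 at full depth; the left bar of a pair is the control and the right bar the CFA library, with the number of neurons above. Mrgprd bars are almost wholly P2rx3 without P2rx2, and the share with both is 48.9% and 50% in the Mrgpra3 gate and 84.6% and 50% in the Sst-Nppb gate.

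P2rx5 and P2rx6 were sparse, with 123 and 116 UMIs over both libraries, and each had most of its UMIs in neurons. P2rx5, at chr11:73160421-73172685, was highest in the Mrgpra3 gate, with 12.1 CPM (8.73 to 16.2) for the control and 14.5 CPM (7.23 to 25.9) for CFA, and it was found in 51.1% and 58.3% of these neurons. The Mrgprd gate, also non-peptidergic, had 0.640 CPM (0.257 to 1.32) in the control against no UMI in the CFA library.

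P2rx6, at chr16:17561885-17577800, encodes a subunit that works mainly together with other P2X subunits. Its level was 31.1 CPM (18.4 to 49.2) for control and 33.2 CPM (17.2 to 58.0) in A-fibre neurons of the CFA library. Single control neurons of this gate had up to 4 UMIs, whereas in the CFA library 1 of 9 neurons held 8 of the 12 UMIs. In Trpm8 neurons P2rx6 was at 10.01 CPM (6.54 to 14.7) for control and 10.8 CPM (5.38 to 19.3) for CFA, and the intervals of these 2 gates overlapped in the CFA library, so that their order there is not settled. P2rx6 overlaps Slc7a4 on the opposite strand, and whether counting used strand is not given in the sources used here. Slc7a4 itself was at 29.4 and 13.8 CPM in A-fibre neurons and at 28.5 and 34.3 CPM in Trpm8 neurons. It was at 35.9 and 27.1 CPM in cLTMR, where P2rx6 was at 2.32 and 2.13 CPM, and at 17.9 and 17.4 CPM in Mrgprd neurons, where P2rx6 had 2 UMIs in control against 0 in CFA cells. The part of Slc7a4 in the P2rx6 values was not tested.

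P2rx4, whose channel sits largely in lysosomes and is known for its part in microglia after nerve injury, was the broadest member. It had UMIs in all 9 neuron gates of both libraries, and in 12 of 13 other cell types in the control against 11 of 13 in the CFA library. Its level was highest in macrophages, with 89.5 CPM (62.0 to 125) in control cells against 76.8 CPM (48.1 to 116) in CFA cells. Satellite glial cells had 38.8 and 39.6 CPM, and all neurons 28.1 CPM (26.5 to 29.9) and 25.4 CPM (23.0 to 27.9). Within neurons the gates ran from 15.6 CPM (A-fibre and cLTMR) to 36.7 CPM (peptidergic with Sstr2) in the control library. No UMI was found in mural cells, the contractile cells of the vessel wall, which in 68 and 23 cells allows up to 29.4 and 94.9 CPM.

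P2rx7, the receptor that opens at high ATP concentrations and is known for the release of interleukin-1 from macrophages, was a gene of glia and macrophages and not of neurons. The gene lies at chr5:122643911-122691432, beside P2rx4 on the same strand. Only 3.36% of its UMIs in the control against 2.45% in the CFA library came from neurons, where it stood at 0.544 and 0.535 CPM. Myelinating Schwann cells had 114 CPM (100 to 129) for the control and 149 CPM (128 to 172) for CFA, and non-myelinating Schwann cells 112 CPM (90.3 to 136) and 150 CPM (108 to 203). Macrophages had 129 CPM (95.4 to 171) and 126 CPM (88.1 to 174). When macrophages were gated by raw marker UMIs in place of clusters, their level was 75.5 and 58.0 CPM. Satellite glial cells had less, at 53.4 CPM (43.7 to 64.5) and 63.3 CPM (47.8 to 82.3), and oligodendrocytes 34.7 and 31.3 CPM.

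**Figure D4:**
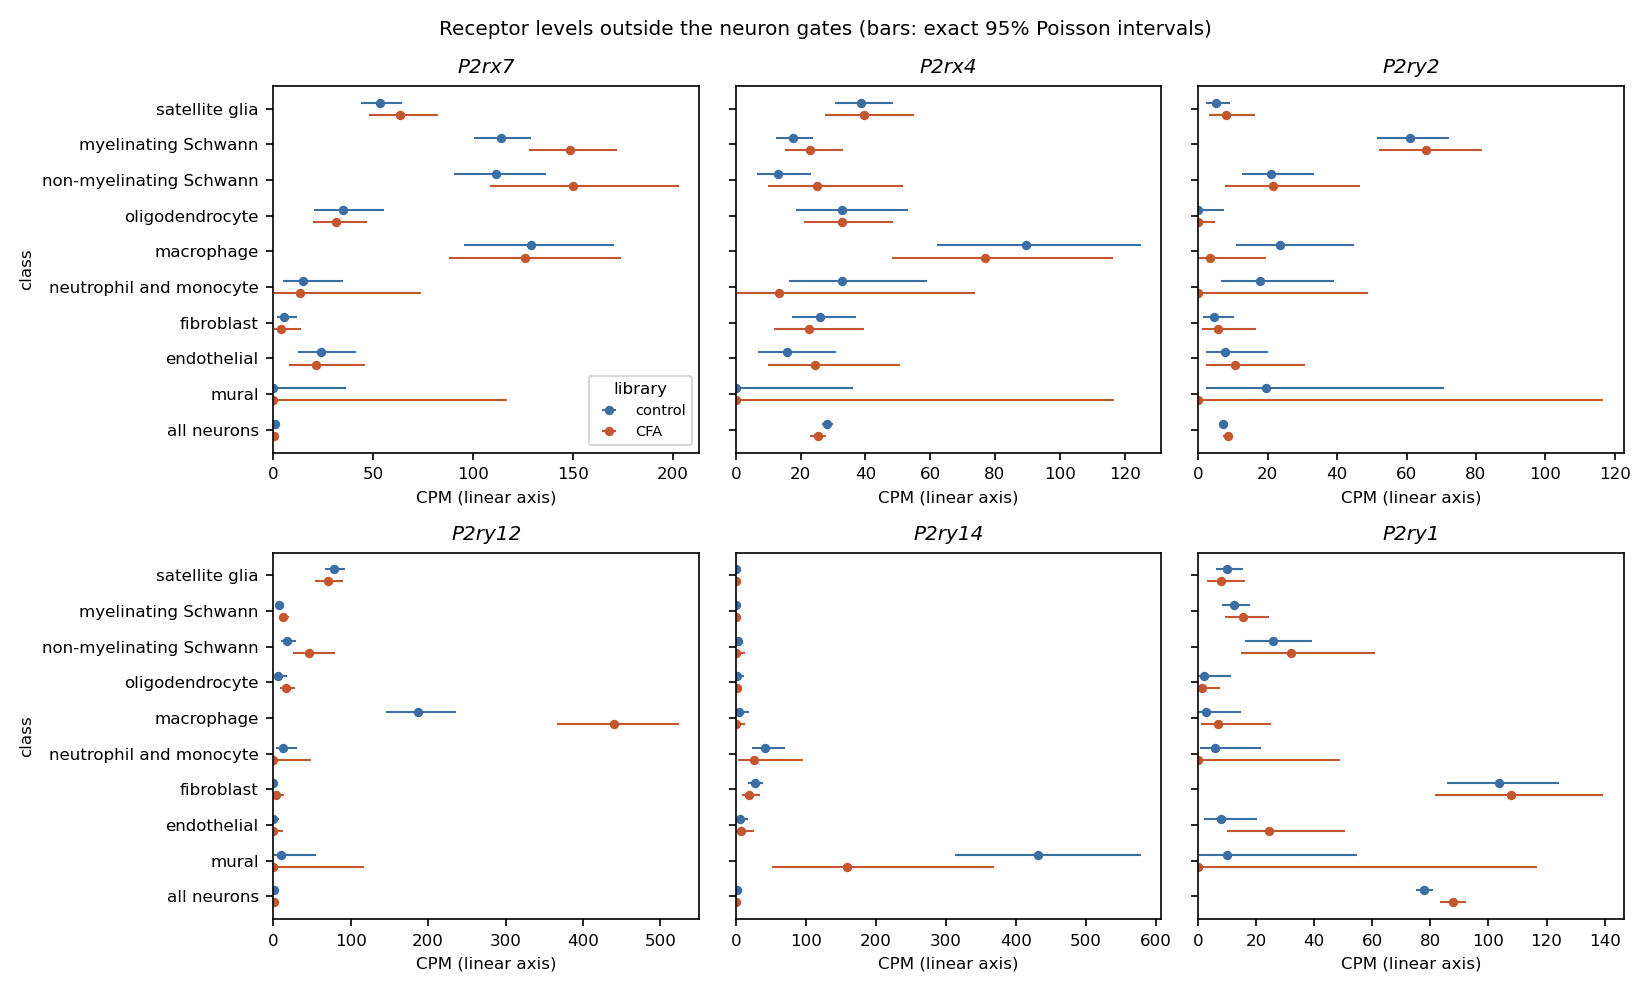
Levels (CPM, linear axes) of 6 receptor genes in glial, immune, stromal and vascular cells and in all neurons, as points with exact 95% Poisson intervals, for the control (blue) and CFA (orange) libraries. P2rx7 was high in both Schwann cell types and macrophages, P2ry2 in myelinating Schwann cells, P2ry14 in mural cells and P2ry1 in fibroblasts, and the intervals of P2ry12 in macrophages (187 and 440 CPM) did not overlap.

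P2ry1, the ADP receptor coupled to calcium release, had its highest level in the cLTMR gate. The gene lies at chr3:61002795-61008982 on the plus strand. Its level was 620 CPM (594 to 647) over 58 control neurons against 617 CPM (582 to 654) over 34 CFA neurons. Every cLTMR had P2ry1 RNA, with 3 to 90 UMIs per neuron and a median of 32.5 in the control, and 16 to 76 UMIs and a median of 29.5 in the CFA library. These neurons held 80.3% of the P2ry1 UMIs of gated neurons in the control against 87.7% in the CFA library.

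A-fibre neurons followed, at 105 CPM (80.6 to 135) in control cells against 177 CPM (136 to 226) in CFA cells, but few cells carried the level. Of 14 control neurons 6 held 95.1% of the UMIs, and of 9 CFA neurons 3 held 98.4%, while the other cells had fewer than 4 UMIs each. The gate was thus split into cells with and without P2ry1 in both libraries. Mrgprd neurons had 24.3 CPM (21.5 to 27.4) and 15.6 CPM (11.97 to 20.1), and Sst-Nppb neurons had 1 UMI in the control against 0 in the CFA library. Outside neurons, fibroblasts had the highest level, with 104 CPM (85.6 to 124) and 108 CPM (81.6 to 140).

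P2ry2, the receptor for UTP and ATP, was found in neurons and in Schwann cells. The gene lies at chr7:100996568-101012866 on the minus strand, and neurons held 57.2% of its UMIs in named control cells and 58.7% in CFA cells. In the Mrgpra3 gate its level was 27.2 CPM (22.1 to 33.2) for the control and 32.9 CPM (21.3 to 48.6) for CFA. Nefh peptidergic neurons had 15.4 and 16.7 CPM, and cLTMR 12.5 and 18.1 CPM. Myelinating Schwann cells had 61.1 CPM (51.4 to 72.2) and 65.7 CPM (52.1 to 81.8), above non-myelinating Schwann cells with 21.1 CPM (12.5 to 33.4) and 21.4 CPM (7.87 to 46.7). Within the Schwann lineage P2ry2 thus separated the myelinating from the non-myelinating cells, which P2rx7 did not.

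P2ry12 and P2ry14 lie close together on chromosome 3, at chr3:59216272-59262871 and chr3:59113855-59153618, with P2ry13 between them. P2Y12, the ADP receptor of platelets and a marker of microglia in the brain, and P2Y13 both couple to Gi, and P2Y14 is the receptor for UDP-glucose. Their starts are shown because the neighbours had different cell types: P2ry12 was highest in macrophages, followed by satellite glia, P2ry13 was found in macrophages, and P2ry14 was highest in mural cells. Each RefSeq sequence (GRCm38.p6, minus strand, 5′ to 3′) runs from 250 bases before to 50 bases after the start that RefSeq gives. For P2ry12 that start lies upstream of the GENCODE gene given above, so its window holds none of that gene and is not compared with the others. Capitals mark GAGGAA, a core bound by the macrophage factor PU.1, searched on both strands.
P2ry12, chr3:59262936-59263235: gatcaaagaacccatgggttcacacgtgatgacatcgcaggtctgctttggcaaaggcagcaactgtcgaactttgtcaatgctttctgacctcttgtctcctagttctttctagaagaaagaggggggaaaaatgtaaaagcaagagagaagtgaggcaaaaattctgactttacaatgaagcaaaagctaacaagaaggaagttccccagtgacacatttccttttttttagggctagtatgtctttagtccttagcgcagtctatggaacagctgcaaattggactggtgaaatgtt
P2ry13, chr3:59210833-59211132: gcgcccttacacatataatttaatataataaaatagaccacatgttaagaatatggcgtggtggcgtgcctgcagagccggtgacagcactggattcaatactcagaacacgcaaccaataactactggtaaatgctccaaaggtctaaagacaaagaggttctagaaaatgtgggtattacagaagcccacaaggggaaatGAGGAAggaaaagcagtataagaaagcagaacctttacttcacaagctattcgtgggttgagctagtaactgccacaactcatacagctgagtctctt
P2ry14, chr3:59153443-59153742: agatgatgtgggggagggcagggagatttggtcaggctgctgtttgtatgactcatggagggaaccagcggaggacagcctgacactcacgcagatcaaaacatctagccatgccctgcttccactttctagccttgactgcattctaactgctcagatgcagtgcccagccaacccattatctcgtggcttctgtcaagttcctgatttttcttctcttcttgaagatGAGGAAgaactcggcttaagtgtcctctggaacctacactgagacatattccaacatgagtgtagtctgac
The letters occurred once in the P2ry13 and once in the P2ry14 window, and in 28.3% of all 32851 promoter windows of this length, and they were not found in the P2ry12 window. Such matches are a description of letters. Promoter sequences were given for 7 of the 10 receptor genes and not for P2rx2, P2rx3 and P2rx5.

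P2ry12 in macrophages had the highest ratio of CFA over control among members with at least 50 counts in a class. There its level was 187 CPM (146 to 236) in 181 control cells and 440 CPM (367 to 524) in 158 CFA cells, a log2 ratio of 1.24 (0.80 to 1.68). The share of macrophages with a UMI was 19.3% in the control against 31.0% in the CFA library at medians of 1854 and 1623 UMIs. With macrophages thinned to 1000 UMIs, which left out 22 and 18 cells, it was 15.7% (10.4 to 22.3) and 25.7% (18.7 to 33.8), and these intervals overlapped. In the CFA library 28 cells with at least 2 UMIs held 83.3% of the UMIs, and the highest cell had 14, against 16 cells with 73.2% and a highest value of 6 in the control library. When macrophages were gated by raw marker UMIs, the levels were 260 and 952 CPM, so the size of the difference depends on which cells count as macrophages.

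Other macrophage genes also differed between the libraries. P2ry13 was at 57.9 CPM in control cells against 119 CPM in CFA cells, a log2 ratio of 1.04 (0.22 to 1.88), whereas P2ry6, the UDP receptor, was at 121 and 115 CPM. Of the 6 macrophage markers used to name the cluster 3 were higher and 3 lower in the CFA library, with log2 ratios from -0.32 (Mrc1) to 0.48 (Csf1r), and their summed level was 9044 CPM for the control and 10313 CPM for CFA. Genes known from resident microglia-like macrophages, which were chosen after their values were seen, moved with P2ry12: the log2 ratio was 1.07 for Cx3cr1, 1.24 for Siglech and 1.10 for Tmem119. Ccr2, known from monocyte-derived macrophages, had -0.54 and the interferon-induced Gbp2 -2.61. The libraries also differed in oligodendrocytes, which the paper likens to central ones: they were 110 of 6695 control and 147 of 3661 CFA cells. Whether the makeup of the macrophage cluster or of the dissected tissue has a part in the P2ry12 value was not tested. With 1 library per condition these cannot be told apart from the condition. Med12l, which spans P2ry12 and P2ry14 on the opposite strand, had 1 UMI in control and 0 in CFA macrophages, and P2ry12 had 71 and 126.

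Satellite glial cells, which wrap the neuron bodies, also carried P2ry12. Their level was 78.5 CPM (66.7 to 91.9) over 948 control cells against 70.1 CPM (53.8 to 89.9) over 458 CFA cells, a log2 ratio of -0.16 (-0.61 to 0.27). The interferon-led glia of the control library had a like level, at 74.1 CPM (55.0 to 97.7), and myelinating Schwann cells had 7.48 and 12.3 CPM. Non-myelinating Schwann cells were at 17.6 CPM (9.86 to 29.1), from 15 UMIs, in the control against 46.5 CPM (24.7 to 79.4), from 13 UMIs, in the CFA library, where the interval overlapped that of satellite glia. Neurons, at 0.311 and 0.297 CPM, had almost none.

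P2ry14 had its highest level in mural cells. It stood at 431 CPM (313 to 579) in 68 control cells and 158 CPM (51.4 to 369) in 23 CFA cells, from 44 and 5 UMIs, found in 41.2% and 13.04% of the cells. Fibroblasts had 26.8 and 18.9 CPM, and neutrophils and monocytes 41.9 and 26.5 CPM. Neurons held 72 P2ry14 UMIs in the control against 14 in the CFA library. The log2 ratio in neurons was -1.16 (-2.10 to -0.32), and the peptidergic gate without Sstr2 gave 37 of the control and 7 of the CFA UMIs. Med12l, which spans P2ry14 on the opposite strand, had 621 UMIs in control and 355 in CFA neurons, at 16.1 and 21.1 CPM. The part of Med12l in the P2ry14 values was not tested.

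Across all neurons, P2rx3 and P2ry14 were lower and P2ry1 was higher in the CFA library, with counting intervals that left out 0, and the intervals of the other 7 receptor genes held 0. A fold of 1.5 in either direction was passed by 1 of the 8 members with at least 50 counts, P2ry14, beside 9.03% of all 14502 genes with as many counts. The median log2 ratio of CFA over control was -0.07 over these 8 members and 0.00 over all genes. P2rx3 was at 35.8 CPM in control cells against 25.6 CPM in CFA cells, a log2 ratio of -0.48 (-0.64 to -0.33). Mrgprd neurons were 19.7% of control and 14.5% of CFA neurons, and with the neuron classes given the same weights in both libraries the ratio of P2rx3 was -0.28.

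P2ry1, at 77.9 and 87.7 CPM, had a log2 ratio of 0.17 (0.08 to 0.26) over all neurons, and with equal class weights it was -0.24. The direction of this pooled value thus depends on how the classes are weighted. The equal weights follow numbers of cells and not of UMIs. Neurons that passed no gate, with few UMIs each, therefore count for more in them. Such neurons were 14.2% of control and 20.1% of CFA neurons, and cLTMR were 7.06% and 7.94%. The part of the makeup of the neurons alone was not tested. P2rx2 had a ratio of 0.01 (-0.26 to 0.28), and -0.29 with equal class weights. P2rx4 had -0.15 (-0.31 to 0.01), P2ry2 0.28 (-0.02 to 0.57), P2rx5 -0.18 (-0.84 to 0.45) and P2rx6 0.02 (-0.62 to 0.62).

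Within single gates, some members passed the 1.5-fold line, at shares of genes that are themselves large in small gates. In the Mrgprd gate P2ry1 did, 1 of 3 members beside 7.32% of all genes, with a log2 ratio of -0.64 (-1.06 to -0.23). P2rx3 in the same gate had -0.22 (-0.41 to -0.03). With gate thresholds doubled, no member passed the line there. In the Mrgpra3 gate, which held 12 CFA neurons, 2 of 6 members passed the line beside 14.02% of all genes, and the log2 ratio was 0.73 (0.12 to 1.31) for P2rx2 and -0.71 (-1.59 to 0.07) for P2rx4.

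In the peptidergic gate without Sstr2, P2rx2 and P2ry1 were lower in the CFA library, 2 of 5 members beside 8.67% of all genes. The log2 ratio of P2rx2 was -1.32 (-2.26 to -0.49), from 77 control and 14 CFA UMIs. Of the control UMIs 74.0% came from 10 neurons with at least 4 UMIs, and no CFA neuron had more than 2, while a UMI was found in 11.7% of the control and 11.9% of the CFA neurons of this gate. The value of P2rx2 therefore rested on 10 of 214 control neurons. P2ry1 had -0.64 (-1.46 to 0.12). In the A-fibre gate the 1 member with enough counts, P2ry1, passed the line at 0.75 (0.22 to 1.28), beside 20.1% of all genes, and its ratio was 0.22 with gate thresholds doubled.

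In cLTMR none of 3 members passed the line, beside 8.92% of all genes, and P2ry1 had a log2 ratio of -0.01 (-0.11 to 0.10). In satellite glial cells none of 3 did, beside 13.6%, and in myelinating Schwann cells none of 3, beside 15.5%. P2rx7 in myelinating Schwann cells had 0.38 (0.10 to 0.66), an interval that lies above 0 and reaches past the 1.5-fold line. Myelinating Schwann cells with at least 1000 UMIs, thinned to that number, had P2rx7 in 10.7% (8.85 to 12.7) of 1031 control and 15.2% (12.05 to 18.9) of 453 CFA cells. These intervals overlapped, and 984 of 2015 control and 832 of 1285 CFA cells were left out. Without thinning, 11.2% of all control and 12.5% of all CFA cells of the class had a P2rx7 UMI. In macrophages 1 of 3 members passed the line, P2ry12, beside 24.3% of all genes.

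**Figure D5:**
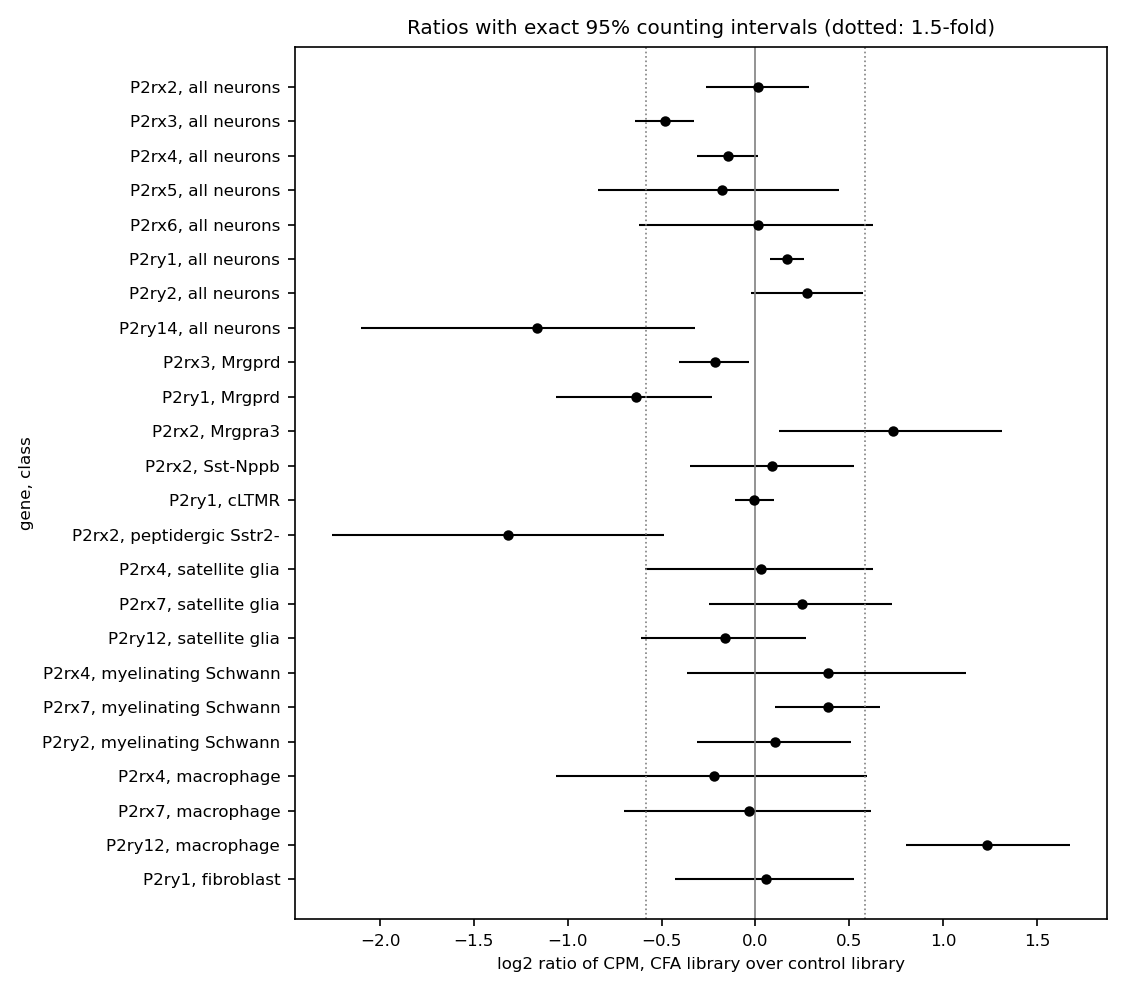
Log2 ratios of CPM in the CFA over the control library for a selection of receptor genes and classes with at least 50 counts, as points with exact 95% counting intervals. The solid line marks no difference and dotted lines a fold of 1.5. Most intervals drawn include 0 or lie within the dotted lines, P2ry12 in macrophages lies to the right (1.24), and P2rx2 in peptidergic neurons without Sstr2 (-1.32) and P2ry14 in all neurons (-1.16) lie to the left. Not drawn, though past the fold, are P2ry1 in the A-fibre gate (0.75), P2rx4 in the Mrgpra3 gate (-0.71) and P2ry1 in peptidergic neurons without Sstr2 (-0.64).

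Genes of the same pathway, 25 chosen for their role, were measured beside the receptors. Over all neurons 14 of them had at least 50 counts, with a median log2 ratio of 0.06. Of these, 1 was higher and 1 lower past 1.5-fold in the CFA library, beside 9.03% of all 14502 genes. The lower gene was Adora2b, an adenosine receptor, at 8.41 and 3.63 CPM. It shared the Mrgpra3 gate with P2rx5 and P2ry2, with 75.7 CPM (67.0 to 85.3) there in the control against 40.8 CPM (27.7 to 57.9) in the CFA library. That gate held 84.4% of the control and 79.5% of the CFA Adora2b UMIs of gated neurons. It was 5.47% of control and 2.80% of CFA neurons. The higher gene was Ada, which breaks adenosine down, at 3.11 and 5.47 CPM. The Sst-Nppb gate held 47.1% of the control and 60.5% of the CFA Ada UMIs of gated neurons. Its Ada level was 95.2 CPM (71.9 to 124) and 103 CPM (76.7 to 135), and the gate was 1.58% of control and 2.34% of CFA neurons. Whether the makeup of the neurons has a part in the pooled Adora2b and Ada values was not tested. Acpp and Nt5e make adenosine from AMP outside the cell. In the Mrgprd gate, where P2rx3 was highest, Acpp was at 659 CPM for control and 725 CPM for CFA, and Nt5e at 135 and 141 CPM. Neither was highest there: Acpp was at 753 and 832 CPM in the Mrgpra3 gate, and Nt5e at 250 and 346 CPM in the Sst-Nppb gate. In cLTMR, Acpp was at 533 and 666 CPM and Nt5e at 8.69 and 5.85 CPM. Entpd2, which degrades ATP, was at 215 and 286 CPM in non-myelinating Schwann cells and at 122 and 138 CPM in satellite glia, and Entpd1 was at 145 and 185 CPM in macrophages. P2ry10, which bears a P2Y name though its response to nucleotides was not examined here, was highest in T and NK cells, at 677 and 389 CPM.

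For the members with at least 200 UMIs, the genes most alike were those with the highest Pearson correlation of log2(CPM + 1) over 44 points, the 22 classes in each of both libraries, which share cells, depth and dissociation. For P2rx2 they were Arhgap36 (r = 0.87), Capn9 (0.86) and Far2 (0.81), and for P2rx3 Mettl7a3 (0.88), Insm2 (0.86) and Galnt5 (0.86). Among the genes most like P2rx7 were Phgdh (0.84) and Qk (0.83), and P2ry14 was most like Thbs1 (0.78), Mylk (0.77) and Vtn (0.77). P2ry1 had lower values, with Mest (0.72), Gm527 (0.71) and Kcns1 (0.70), and P2ry2 with Kctd11 (0.71), Ccn3 (0.68) and Ephb6 (0.67). For P2ry12 they were Creb5 (0.78), Specc1 (0.78) and Pdlim4 (0.77), and for P2rx4 Wdr45b (0.85), Riok2 (0.84) and Gtf2h1 (0.80).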

How the data were processed

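Single cells of 2 BD Rhapsody libraries, 1 per condition, were analysed. The authors deposited raw UMI counts for each gene in each cell, whole numbers that were not normalized. The submitters' processing notes name fastp and GRCm38, and other tools and strand use are not given in the sources used here. Gene positions are from GENCODE M21 (GRCm38).

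Cells with fewer than 150 genes or over 25% mitochondrial counts were left out, as in the study, leaving 48233077 control and 21658155 CFA UMIs. Cells were clustered with Seurat 5.3.0 in R 4.3.3 (2000 variable genes without the purinergic genes, 20 components, resolution 0.8, seed 1). Clusters were named from marker lists, and 3 of 24 clusters fitted no list and stayed unnamed. Neurons were gated by raw UMIs: Mrgprd at least 5, Mrgpra3 at least 5, Sst and Nppb at least 5 each, Trpm8 at least 3, or Tafa4 at least 5 with Slc17a8 at least 2. The remaining neurons were split at 20 UMIs of Nefh, 50 of Calca and of Tac1, and 2 of Sstr2. Members, lists and gate thresholds were chosen with earlier results of these data known. Scrublet (scanpy 1.11.5) called 102 control and 4 CFA doublets, which were kept.

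UMI counts of all cells of a class were added up in each library and divided by the class total to give CPM. Ratios use a fold of 1.5 among genes that reach 50 counts. A count of 0 was read as under 3 counts. The ratio intervals were checked on simulated class sums with Poisson counting error. These sums hold no uneven spread of UMIs over cells, so the check does not cover it. Gating, thinning and the naming of clusters were not simulated. The text names all members, a list of 25 pathway genes, and for each member with at least 200 UMIs the 3 genes (at least 500 UMIs) most correlated with it, together with the macrophage markers and overlapping genes that touch a result. Alternatives were a stricter cell filter, removal of doublets, other gate thresholds, other depths, other weights and totals, and raw gates outside neurons. Some genes that these rules or lists would name are not reported here.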

Additional observations from a re-analysis of the deposited data

How the results depend on the processing

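No paired analysis was possible because each condition has 1 library, and for the same reason no replicate could be left out. The share of neurons with UMIs of both P2rx2 and P2rx3 was set by depth. It was 0.253% in the control library when thinned to 5000 UMIs, 4.25% in the control against 2.98% in the CFA library at 20000 UMIs, 7.42% and 4.44% without thinning, and 4.14% in the control library when at least 2 UMIs of each gene were asked for. The log2 ratio of P2rx3 over all neurons was -0.70 with every cell weighted equally and -0.28 with neuron classes given the same weights in both libraries, and under these weights P2rx2 stood at -0.29 and P2ry1 at -0.24. The number of members past 1.5-fold was 0 in the Mrgprd gate with thresholds doubled, and 0 in all neurons when at least 100 counts were required, which left P2ry14 out. The other 73 of 85 recomputed summary values stayed within the interval of the reported value, or, for counts of members, within 1.5 times the count. Of 298 recomputed levels and ratios in single classes 5 moved out of their interval, namely P2rx7 and P2ry12 in macrophages gated by raw UMIs, in both libraries, and the P2ry1 ratio in the A-fibre gate with thresholds doubled. The removal of cells with a doublet score above 0.25 was added after seeing the data, because the automatic thresholds of the libraries differed, at 0.276 and 0.489. Depth limits the sparse members: P2rx5 and P2rx6 had 116 to 123 UMIs each, and P2ry14 had 5 UMIs in CFA mural cells. Gates of fewer than 15 neurons, such as Sst-Nppb and A-fibre, carry wide intervals, and the variation between mice cannot be seen with 1 library per condition.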

Other observations

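The neurons that passed no gate, 117 in the control against 86 in the CFA library, were shallow, with medians of 9888 and 9652 UMIs. Their P2ry1 level was 173 CPM (155 to 192) for the control and 108 CPM (91.5 to 127) for CFA. Of the control cells 10 with at least 10 UMIs held 79.3% of these UMIs, and of the CFA cells 7 held 63.3%. P2rx3 stood at 14.1 and 12.98 CPM in these neurons, and P2rx2 at 9.58 and 7.21 CPM.

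The clusters that stayed unnamed had 287 control and 144 CFA cells, and their P2rx7 level was 76.5 CPM (55.6 to 103) in control cells against 36.9 CPM (18.4 to 66.0) in CFA cells. P2ry2 was at 36.5 CPM (22.6 to 55.8) and 13.4 CPM (3.65 to 34.3) in them. Erythrocytes had 2 UMIs of P2rx7 in 53 control cells and 10 UMIs in 98 CFA cells.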
